A study of Homo sapiens with 12 samples.

Results

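This section describes 40 genes that encode proteins the hepatocyte secretes into the blood, read by RNA-seq in 12 human cell line libraries. The genes were taken by symbol from 61806 gene IDs, as 12 apolipoproteins, 4 lipoprotein enzymes and transfer proteins, 8 plasma carriers, 11 protease inhibitors and related proteins, and 5 acute phase proteins. All 40 symbols were found. HepG2, a line derived from a human liver tumour, carried either a pLVX lentiviral vector with CD146, here called CD146 overexpression, or pLVX alone. Libraries labelled Hep3B, another human liver tumour line, carried either a CD146 shRNA or a control shRNA, both under a tetracycline-inducible (Tet-on) system. CD146 is a cell adhesion molecule encoded by MCAM. Each of the 4 groups had 3 libraries. The titles number the shRNA libraries 1 to 3, and whether these numbers mark hairpins or replicates is not said. The treatment label is the same within a group, and they are called replicates here. The labels name no clone. Nothing in them says whether replicates were grown apart, so a p-value here speaks only of the spread among libraries, and that spread may be technical.

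Apolipoproteins form the protein shell of lipoproteins. APOB is the structural protein of very low density lipoprotein, APOA1 that of high density lipoprotein, and the smaller exchangeable apolipoproteins steer the lipases, receptors and transfer proteins that remodel both particles. Albumin, transthyretin, haptoglobin, hemopexin and the hormone-binding serpins carry ligands in plasma. Acute phase proteins are plasma proteins whose production by the liver shifts in inflammation, mostly through interleukin 6 and STAT3 and through interleukin 1 and C/EBP factors.

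Totals ran from 13.3M to 16.9M counts with CD146 overexpression and from 12.8M to 16.7M with pLVX (M, 1e6), and from 14.1M to 18.1M with the CD146 shRNA and from 13.8M to 16.7M with the control shRNA. MCAM had 1932 ± 30.9 CPM with CD146 overexpression and 23.4 ± 0.407 CPM with pLVX, and 24.4 ± 2.44 CPM with the CD146 shRNA and 115 ± 3.53 CPM with the control shRNA (SD, n = 3 each), so its direction followed the labels in both comparisons. CPM are counts per 1e6 of the scaled library total. The libraries labelled Hep3B nearly lacked hepatocyte transcripts, so their label was not borne out by these markers, and they are called by it only as the label. The 9 hepatocyte markers, which include 4 of the 40 genes, summed to between 1.60 and 37.0 CPM with the CD146 shRNA and to between 0.660 and 1.26 CPM with the control shRNA, against 27014 to 27488 CPM with CD146 overexpression and 32048 to 33318 CPM with pLVX. CD146 shRNA replicate 3 stood apart, with 1119 counts on the 40 genes against 264 to 337 in each of the other 5 libraries labelled Hep3B, and results that rest on it are given with and without it.

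In HepG2 the 40 genes took between 5.33 and 5.39% of all counts with CD146 overexpression and between 5.85 and 6.03% with pLVX. Albumin (ALB) alone took 1.53 to 1.56% with CD146 overexpression and 2.09 to 2.17% with pLVX. Without albumin, the other genes together took 3.79 to 3.83% with CD146 overexpression and 3.76 to 3.86% with pLVX, and these ranges overlapped.

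Levels between genes were compared on the deposited FPKM, which are scaled by gene length. In each HepG2 group 5 genes reached 1000 FPKM, 15 reached 100 FPKM, 19 stood between 1 and 100 FPKM and 6 stood under 1 FPKM. Albumin was first in both groups, at 4517 ± 56.5 FPKM with CD146 overexpression and 6237 ± 130 FPKM with pLVX (SD, n = 3 each). APOA2, the second apolipoprotein of high density lipoprotein, followed at 1483 ± 49.4 FPKM with CD146 overexpression and 1818 ± 5.66 FPKM with pLVX. APOH, a phospholipid-binding glycoprotein, had 1404 ± 16.8 FPKM with CD146 overexpression and 1470 ± 30.5 FPKM with pLVX. APOA1 had 1445 ± 17.1 FPKM with CD146 overexpression and 1369 ± 8.12 FPKM with pLVX, and APOB had 1361 ± 15.1 FPKM with CD146 overexpression and 1285 ± 16.9 FPKM with pLVX. The order of APOH and APOA1 differed between the groups, with APOA1 above APOH with CD146 overexpression and below it with pLVX. AHSG, SERPINA1 and ITIH2 completed the first 8 genes in both groups.

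The first comparison asked what CD146 overexpression did to these transcripts in HepG2. Of the 40 genes, 35 passed the filter on low counts. Of these 35, 19 fell, 1 rose and 15 were not called, by edgeR's quasi-likelihood test with Benjamini-Hochberg adjustment over all 15300 genes tested (threshold 0.05). Over all genes tested, 10.3% fell and 9.55% rose. Many of the 40 genes are highly expressed, where small changes are called more often. Of the 26 that averaged at least 20 CPM, 16 fell and 0 rose, against 17.2% falling and 10.2% rising among all 7458 genes of at least 20 CPM. The median log2 fold change was -0.24 over the 35 genes and 0.00 over all genes tested. The 3 libraries of one group lay wholly outside those of the other for 22 of the 35 genes, 20 of them lower and 2 higher with CD146 overexpression, and for 33.6% of all genes. The falls were of modest size, between 9.12 and 52.8%, with 11 of the 19 at least 20% and 8 smaller. Of the 20 calls, 15 held with the same direction in all 15 alternative analyses. The other 5 were those of AHSG, APOH, APOF, ORM1 and ORM2.

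**Figure D1:**
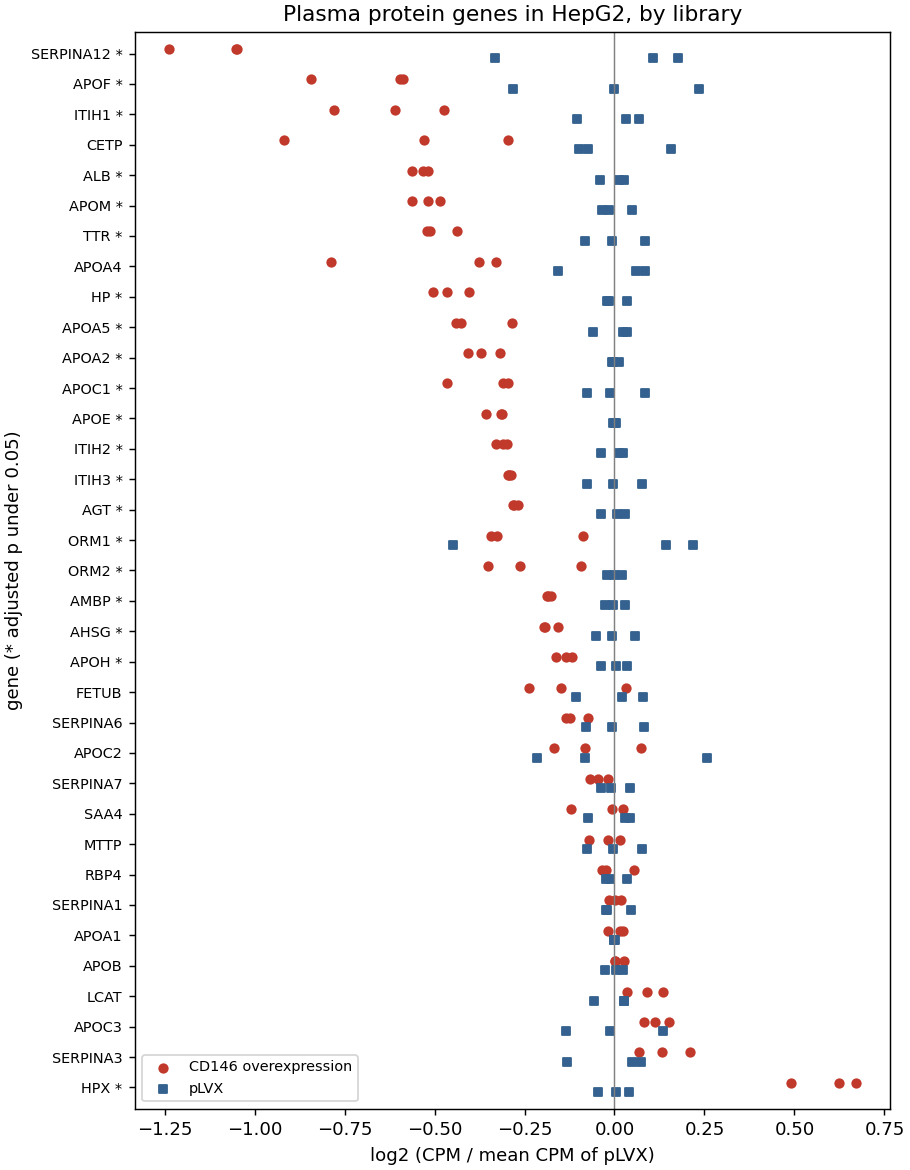
Level of the 35 tested genes in each HepG2 library, as log2 of the CPM over the mean CPM of the 3 pLVX libraries (x axis), with the largest fall at the top and the rise at the bottom; circles are CD146 overexpression, squares are pLVX, and an asterisk marks an adjusted p under 0.05. The circles of ALB, APOM and HP lie tightly together, well left of their squares, while those of APOB, APOA1 and SERPINA1 lie among their squares.

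In a bulk library, fewer cells of a kind and less RNA per cell cannot be told apart, and this holds for all these falls. Marker sets were read beside them, and they did not all move alike. Over all genes tested, 10.3% fell and 9.55% rose, shares that belong beside each set. Of 8 hepatocyte markers tested in HepG2, 3 fell, 0 rose and 5 were not called, with a median log2 fold change of -0.046. These 8 include 4 of the 40 genes (ALB, TTR, APOA1 and SERPINA1), so the set is no separate readout. ALB and TTR were among the 3 that fell. Of 3 endothelial markers tested, 1 fell and 0 rose, and the same held for 3 fibroblast and stellate markers. Of 6 cholangiocyte markers, 4 were tested and all 4 rose (KRT19, log2 fold change 1.39, EPCAM, 0.37, SPP1, 0.25, and SOX9, 0.16). Their sum ran from 1211 to 1243 CPM with CD146 overexpression and from 891 to 990.3 CPM with pLVX, with CFTR at 0 in both groups. Of 5 yolk sac markers, 4 were tested and only AFP was called. The 5 summed to 4377 to 4499 CPM with CD146 overexpression and to 5904 to 6172 CPM with pLVX. Nearly all of these sums was AFP, which is also counted among the other plasma proteins below. The share of counts on mitochondrially encoded genes ran from 11.2 to 11.8% with CD146 overexpression and from 12.6 to 13.0% with pLVX. The part of these in the falls was not tested, nor was it tested whether the marker transcripts came from HepG2 cells themselves.

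Among the 8 plasma carriers, 3 fell, 1 rose and 3 of the 7 tested were not called. Shares over all genes tested were 10.3% falling and 9.55% rising. Albumin, the main protein of plasma, had 15214, 15350 and 14886 CPM in the 3 libraries with CD146 overexpression, against 22401, 21372 and 22188 CPM with pLVX. Every library with CD146 overexpression was lower than every pLVX library, and the spread within each group was small beside the gap. The level was 31.1% lower with CD146 overexpression (edgeR log2 fold change -0.54, SE 0.03, adjusted p = 2.2e-23).

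Transthyretin (TTR), which carries thyroxine and the retinol-binding protein, had 24.7, 23.5 and 23.3 CPM with CD146 overexpression, against 35.5, 33.3 and 31.6 CPM with pLVX. It was far weaker than albumin in these cells and fell by a like fraction (log2 fold change -0.49, SE 0.07, edgeR adjusted p = 1.1e-07). Haptoglobin (HP), which binds free hemoglobin, had 169, 176 and 164 CPM with CD146 overexpression, against 230, 239 and 231 CPM with pLVX. The groups did not overlap (log2 fold change -0.46, SE 0.04, edgeR adjusted p = 1.9e-15). HP overlaps TXNL4B, which lies on the other strand and had 306 to 458 counts in the HepG2 libraries. Strand use in the counting is not given in the sources used here.

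Hemopexin (HPX), which binds free heme, was the one gene of the 40 that rose. It had 18.0, 15.9 and 17.4 CPM with CD146 overexpression, against 10.9, 11.6 and 11.3 CPM with pLVX. All 3 libraries with CD146 overexpression were above all pLVX libraries (51.2% higher, log2 fold change 0.60, SE 0.09, edgeR adjusted p = 1.3e-06). Haptoglobin and hemopexin, which handle the successive products of red cell breakdown, thus moved in opposite directions.

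Retinol-binding protein (RBP4) had 429, 426 and 453 CPM with CD146 overexpression, against 433, 447 and 429 CPM with pLVX. The groups overlapped, and the log2 fold change was -0.00 with an approximate 95% interval from -0.06 to 0.06. The partner of RBP4 in plasma is TTR, which fell. Of the hormone-binding serpins, thyroxine-binding globulin (SERPINA7) had a log2 fold change of -0.04 with an interval from -0.11 to 0.02, and cortisol-binding globulin (SERPINA6) of -0.11 with an interval from -0.19 to -0.02 (edgeR adjusted p = 0.067). SERPINA6 passed the threshold without pLVX replicate 2. The vitamin D-binding protein gene GC was barely detected, with 10 counts in all with CD146 overexpression and 4 with pLVX, and was not tested.

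Among the 12 apolipoproteins, 7 fell, 0 rose and 5 were not called, with a median log2 fold change of -0.34. Shares over all genes tested were 10.3% falling and 9.55% rising. APOM, which carries sphingosine 1-phosphate on high density lipoprotein, had 130, 134 and 137 CPM with CD146 overexpression, against 198, 187 and 190 CPM with pLVX. These groups were well apart (30.2% lower, log2 fold change -0.52, SE 0.04, edgeR adjusted p = 1.1e-16). APOM overlaps BAG6 on the other strand, which had 2614 to 3481 counts in the HepG2 libraries.

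APOF, an inhibitor of lipid transfer, had 5.99, 5.01 and 5.95 CPM with CD146 overexpression, against 8.98, 7.40 and 10.6 CPM with pLVX (log2 fold change -0.65, SE 0.13, edgeR adjusted p = 0.00021). Its pLVX libraries were spread widely but did not reach the libraries with CD146 overexpression. Its call was lost on the FPKM with a pseudocount of 1. APOA5, which promotes lipolysis of triglyceride-rich particles, had 26.6, 26.8 and 29.6 CPM with CD146 overexpression, against 36.9, 34.6 and 36.7 CPM with pLVX (log2 fold change -0.38, SE 0.07, edgeR adjusted p = 1.2e-05).

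APOA2 had 1330, 1364 and 1415 CPM with CD146 overexpression, against 1779, 1760 and 1755 CPM with pLVX (22.4% lower, log2 fold change -0.37, SE 0.03, edgeR adjusted p = 3.4e-15). Its companion on high density lipoprotein did not move with it. APOA1 had 1557, 1566 and 1522 CPM with CD146 overexpression, against 1541, 1543 and 1539 CPM with pLVX, and its log2 fold change of 0.01 had an interval from -0.05 to 0.06.

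APOE, a ligand of the low density lipoprotein receptor, had 444, 431 and 445 CPM with CD146 overexpression, against 551, 553 and 554 CPM with pLVX (log2 fold change -0.33, SE 0.03, edgeR adjusted p = 1e-12). APOC1, which hinders the uptake of remnant particles, had 117, 131 and 130 CPM with CD146 overexpression, against 153, 171 and 160 CPM with pLVX (log2 fold change -0.36, SE 0.04, edgeR adjusted p = 1.3e-09). Neither pair of groups overlapped. APOH fell least among the 19 (9.12% lower, log2 fold change -0.14, edgeR adjusted p = 0.00021) and lost its call on the FPKM under both pseudocounts and in the fit of all 12 libraries.

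APOB had 19946, 19609 and 19608 CPM with CD146 overexpression, against 19895, 19209 and 19628 CPM with pLVX. The groups overlapped and the log2 fold change of 0.01 had an interval from -0.04 to 0.07. APOB and ALB were the 2 genes of the 40 with the most counts in HepG2, and ALB had fewer counts than APOB in every library with CD146 overexpression and more in every pLVX library. On the FPKM with a pseudocount of 0.1, which are not rescaled for composition, APOB and APOA1 were called higher. APOC3, an inhibitor of lipoprotein lipase, had a log2 fold change of 0.11 with an interval from 0.00 to 0.22 (edgeR adjusted p = 0.17), and it passed the threshold without pLVX replicate 2. APOC2, the activator of that lipase, stood at 7.42 ± 0.637 CPM with CD146 overexpression and 7.70 ± 1.34 CPM with pLVX, and overlaps the readthrough gene APOC4-APOC2 on the same strand, which had 94 to 121 counts in the HepG2 libraries. APOA4, made mainly in the intestine, stood at 1.85 ± 0.307 CPM with CD146 overexpression and 2.59 ± 0.234 CPM with pLVX (log2 fold change -0.49, edgeR adjusted p = 0.15).

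None of the 3 tested lipoprotein enzymes and transfer proteins was called (0 at an adjusted p under 0.05). MTTP, which loads lipid onto APOB, had 229, 215 and 223 CPM with CD146 overexpression, against 238, 214 and 225 CPM with pLVX, and an interval of the log2 fold change from -0.09 to 0.05. LCAT, which esterifies cholesterol on high density lipoprotein, had 32.6, 33.9 and 35.0 CPM with CD146 overexpression, against 30.7, 32.5 and 32.5 CPM with pLVX (log2 fold change 0.09, edgeR adjusted p = 0.38). LCAT lies on the same strand as the overlapping SLC12A4, which had 1493 to 2312 counts in the HepG2 libraries, so its reads are uncertain. CETP, which exchanges cholesteryl ester between lipoproteins, had 0.578 ± 0.122 CPM with CD146 overexpression and 0.851 ± 0.0853 CPM with pLVX (log2 fold change -0.54, interval from -1.32 to 0.24). PON1, an esterase of high density lipoprotein, had 14 counts in all with CD146 overexpression and 16 with pLVX and was not tested.

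Among the 11 protease inhibitors and related proteins, 7 fell, 0 rose and 3 of the 10 tested were not called. Shares over all genes tested were 10.3% falling and 9.55% rising. SERPINA12 (vaspin), a serpin best known from adipose tissue, had the largest fall of the 40 genes in this comparison. It had 5.54, 4.87 and 5.55 CPM with CD146 overexpression, against 12.9, 9.11 and 12.3 CPM with pLVX. The pLVX libraries varied more, but none reached the libraries with CD146 overexpression (52.8% lower, log2 fold change -1.08, SE 0.13, edgeR adjusted p = 2.3e-09).

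Heavy chains of inter-alpha-trypsin inhibitor, which bind hyaluronan, fell for all 3 that were tested. ITIH2, the most abundant, had 2414, 2431 and 2383 CPM with CD146 overexpression, against 3040, 2916 and 3018 CPM with pLVX (19.5% lower, log2 fold change -0.31, SE 0.03, edgeR adjusted p = 2.4e-13). ITIH1 had 6.50, 7.15 and 5.78 CPM with CD146 overexpression, against 9.23, 10.4 and 10.1 CPM with pLVX (log2 fold change -0.63, SE 0.12, edgeR adjusted p = 7.2e-05). ITIH3 fell by 0.29 on the log2 scale (edgeR adjusted p = 9.2e-10), and AMBP, the precursor of the light chain bikunin, fell by 0.18 (edgeR adjusted p = 2.7e-06). ITIH4 had 21 counts in all with CD146 overexpression and 12 with pLVX and was not tested.

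AGT, the precursor of angiotensin, had 613, 612 and 617 CPM with CD146 overexpression, against 759, 747 and 725 CPM with pLVX (17.4% lower, log2 fold change -0.28, SE 0.03, edgeR adjusted p = 1.3e-10). AHSG (fetuin-A), which keeps calcium phosphate in solution, had 1874, 1871 and 1923 CPM with CD146 overexpression, against 2227, 2067 and 2132 CPM with pLVX (11.8% lower, log2 fold change -0.18, edgeR adjusted p = 2.9e-06), and lost its call on the FPKM. SERPINA1 (alpha-1-antitrypsin), which inhibits neutrophil elastase, had 4346, 4402 and 4298 CPM with CD146 overexpression, against 4482, 4279 and 4270 CPM with pLVX, and its log2 fold change of 0.00 had an interval from -0.05 to 0.06. SERPINA3, an inhibitor of cathepsin G, had a log2 fold change of 0.14 (edgeR adjusted p = 0.36) and FETUB of -0.13 (edgeR adjusted p = 0.6).

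Of the 5 genes grouped here as acute phase proteins (ORM1, ORM2, SAA1, SAA4 and CRP), 3 were tested and 2 fell. The share falling over all genes tested was 10.3%. This grouping is not a full list of acute phase proteins. ORM1, one of the alpha-1-acid glycoproteins, which bind drugs in plasma, had 151, 178 and 149 CPM with CD146 overexpression, against 220, 138 and 209 CPM with pLVX. The pLVX replicate 2 lay below every library with CD146 overexpression, so the groups overlapped. The call of ORM1 (log2 fold change -0.24, SE 0.07, edgeR adjusted p = 0.011) was lost without pLVX replicate 1 (log2 fold change -0.12) or 3 (-0.16), without replicate 1 (-0.20) or 3 (-0.20) of CD146 overexpression, with DESeq2 and on the FPKM. Without pLVX replicate 2 the log2 fold change was -0.43. ORM2 had 114, 136 and 121 CPM with CD146 overexpression, against 143, 147 and 145 CPM with pLVX (log2 fold change -0.24, SE 0.04, edgeR adjusted p = 3.1e-05), and lost its call on the FPKM. The copies are nearly identical in sequence and the split of reads between them is uncertain. Summed, they had 264, 314 and 270 CPM with CD146 overexpression, against 362, 286 and 354 CPM with pLVX, and the groups overlapped.

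The serum amyloid gene SAA4, whose product is present in plasma at all times, had 39.8, 36.7 and 40.6 CPM with CD146 overexpression, against 38.0, 40.7 and 41.1 CPM with pLVX (log2 fold change -0.03, interval from -0.15 to 0.09). SAA1, which rises steeply in inflammation, had 0 counts in all 6 HepG2 libraries, where 3 counts would have been worth at most 0.235 CPM. C-reactive protein (CRP) had 0 counts in all 12 libraries.

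**Figure D2:**
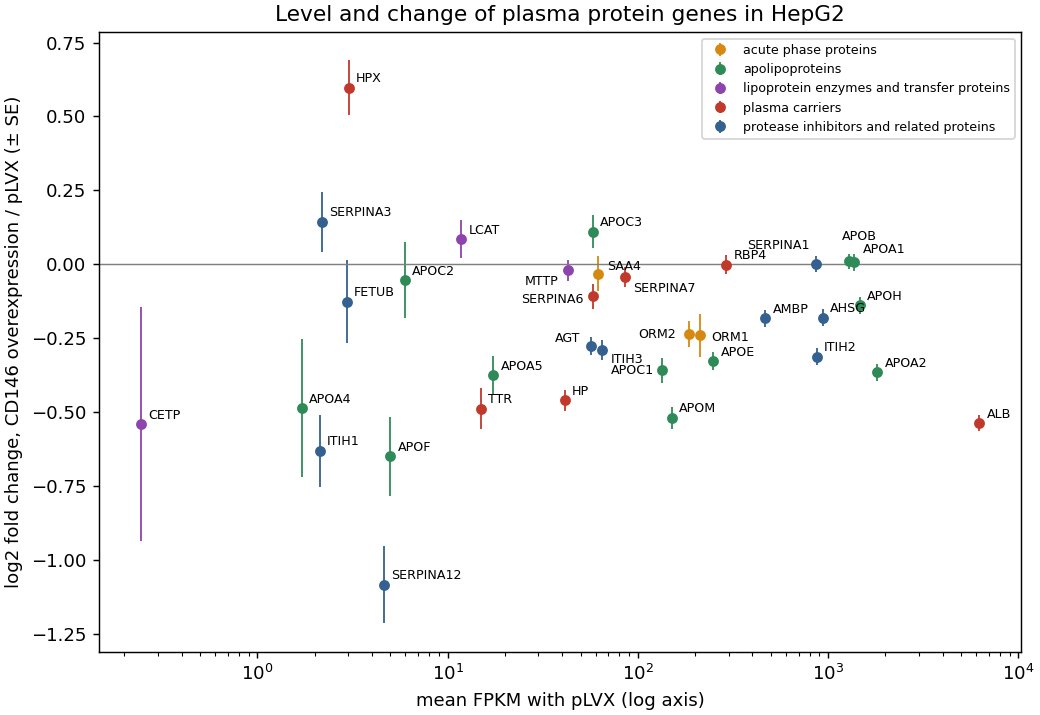
Log2 fold change of CD146 overexpression over pLVX with its SE (y axis) against the mean FPKM with pLVX (x axis, log scale) for the 35 tested genes, coloured by role. Genes that fell stand between ITIH1 at 2.13 FPKM and ALB at 6237 FPKM, the weaker APOA4 and CETP were not called, and the genes near 0 include APOB, APOA1 and SERPINA1 at 862 FPKM or more.

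Many of these genes lie side by side in the genome, and neighbours did not all share a change (positions from GENCODE version 29, GRCh38). On chromosome 11, between 116789367 and 116837950, APOA5 fell, while APOA4, APOC3 and APOA1 were not called. On chromosome 14, between 94304248 and 94624055, SERPINA12 fell, while SERPINA6, SERPINA1 and SERPINA3 were not called. On chromosome 19, between 44905754 and 44949565, APOE and APOC1 fell and APOC2 was not called. On chromosome 3, ITIH1 and ITIH3 fell beside the untested ITIH4 between 52777592 and 52831479, and AHSG fell beside the uncalled FETUB between 186612923 and 186653141. On chromosome 9, between 114060127 and 114333252, AMBP, ORM1 and ORM2 were all called lower, but the call of ORM1 was lost in several alternatives. The groups overlapped for ORM1 and for the sum of ORM1 and ORM2, between which the split of reads is uncertain.

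**Figure D3:**
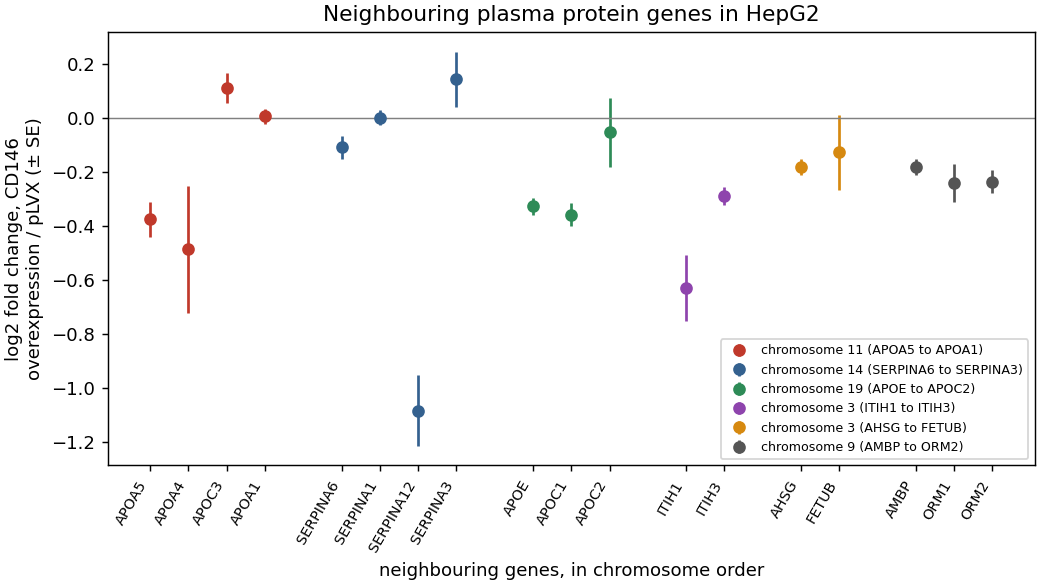
Log2 fold change of CD146 overexpression over pLVX with its SE (y axis) for neighbouring genes in chromosome order (x axis), coloured by the stretch they lie in. SERPINA12 at -1.08 lies between SERPINA1 at 0.00 and SERPINA3 at 0.14, and APOA5 at -0.38 lies in the same stretch as APOA1 at 0.01.

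Promoter windows were read because genes of this kind share liver transcription factors. The windows, from RefSeq (GRCh38.p14), run from 250 bases before to 50 bases after a start site. They were found for 29 of the 40 genes, and for none of APOA1, APOB, APOC3, APOF, GC, HP, ITIH2, LCAT, ORM2, SAA1 and TTR. Shown 5′ to 3′ on the gene's strand are the windows of ALB and APOM, which fell, of SERPINA7, which was not called, and of HPX, which rose, with capitals marking matches to GTTAAT, a part of the site of HNF1, or to TTGCNNAA, a core of the C/EBP site, on either strand. They lie at chr4:73404037-73404336 (plus strand), chr6:31655644-31655943 (plus strand), chrX:106038678-106038977 (minus strand) and chr11:6440938-6441237 (minus strand).
ALB: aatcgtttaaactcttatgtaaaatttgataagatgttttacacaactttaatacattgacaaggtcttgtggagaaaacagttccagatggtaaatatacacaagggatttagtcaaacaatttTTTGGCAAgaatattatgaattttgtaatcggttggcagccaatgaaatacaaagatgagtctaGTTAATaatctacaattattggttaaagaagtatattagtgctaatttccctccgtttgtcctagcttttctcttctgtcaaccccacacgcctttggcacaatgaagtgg
APOM: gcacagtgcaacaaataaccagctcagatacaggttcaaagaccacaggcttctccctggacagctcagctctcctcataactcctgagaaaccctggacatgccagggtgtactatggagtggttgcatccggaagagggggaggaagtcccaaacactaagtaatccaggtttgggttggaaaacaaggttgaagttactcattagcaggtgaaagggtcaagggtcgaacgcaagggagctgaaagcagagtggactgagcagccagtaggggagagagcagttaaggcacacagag
SERPINA7: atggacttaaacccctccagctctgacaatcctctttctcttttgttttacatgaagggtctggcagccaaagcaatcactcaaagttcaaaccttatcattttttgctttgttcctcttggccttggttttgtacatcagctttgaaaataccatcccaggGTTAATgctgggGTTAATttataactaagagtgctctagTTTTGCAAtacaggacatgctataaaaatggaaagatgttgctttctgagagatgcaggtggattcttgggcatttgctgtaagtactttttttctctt
HPX: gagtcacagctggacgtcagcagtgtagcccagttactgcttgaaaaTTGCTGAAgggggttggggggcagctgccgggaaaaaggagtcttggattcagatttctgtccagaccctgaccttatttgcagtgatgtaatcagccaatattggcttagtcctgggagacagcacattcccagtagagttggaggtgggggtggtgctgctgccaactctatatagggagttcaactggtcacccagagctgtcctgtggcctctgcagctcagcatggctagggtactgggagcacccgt

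The ALB window holds GTTAAT at -61 and a C/EBP match at -125 from the start site, and that of APOM holds neither. SERPINA7 holds GTTAAT at -88 and -76 and a C/EBP match at -49, and HPX a C/EBP match at -203. Over all, GTTAAT was found in 24.1% of the 29 genes and 8.27% of 27305 genes with a searched window. TTGCNNAA was found in 31.0% of the 29 and 12.7% of all. Windows on 1 chromosome, which holds none of the 40 genes, were left out of the search. The STAT letters TTCNNNGAA were found in 17.2% of the 29 genes and 9.38% of all, and the HNF4 letters CAAAGTCCA in 3.45% of the 29 and 0.472% of all. Split by response, GTTAAT was in 3 of 14 genes that fell and in 4 of 11 genes not called, and TTGCNNAA in 3 of the 14 and in 5 of the 11. The 29 genes have 41 windows, of which 21 genes have 1 each, and a gene counts if any of its windows holds the letters. The search covered both strands, no match overlapped one of another motif in the windows shown, and a match is a description of letters only.

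Genes that act on the same particles and pathways were read in the same fits. Over all genes tested in HepG2, 10.3% fell and 9.55% rose, shares that belong beside each list. Of 21 genes for lipoprotein receptors, lipases and remodelling, 18 were tested in HepG2, where 8 fell and 0 rose. The endothelial lipase LIPG had 9.02 ± 1.27 CPM with CD146 overexpression and 14.2 ± 0.887 CPM with pLVX (SD, n = 3 each) and fell by 0.63 on the log2 scale (edgeR adjusted p = 6.2e-06). P4HB, the subunit that MTTP works with, fell by 0.18, and SAR1B, a GTPase of secretory vesicles, by 0.17. Of 16 genes of acute phase signalling, 15 were tested, 3 rose and 3 fell. The interleukin 6 co-receptor IL6ST (log2 fold change -0.20) and the interleukin 1 receptor IL1R1 (-0.26) fell, and STAT3 (0.17) and NFKBIA (0.26), an inhibitor of NF-kappa-B, rose.

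Of 20 hepatocyte transcription factors, all tested in HepG2, 5 rose and 2 fell, against 9.55% rising and 10.3% falling over all genes tested. ONECUT2 had 54.3 ± 3.13 CPM with CD146 overexpression and 76.5 ± 1.56 CPM with pLVX (log2 fold change -0.49, edgeR adjusted p = 1.5e-11) and RXRA, the partner of many nuclear receptors, fell by 0.22 on the log2 scale. PROX1 (log2 fold change 0.19) and the xenobiotic receptor NR1I3 (0.65) rose. Of 30 other plasma proteins secreted by hepatocytes, 24 were tested, 10 fell and 5 rose, with a median log2 fold change of -0.04. Among them the protease inhibitor A2M had 2977 ± 48.8 CPM with CD146 overexpression and 4487 ± 249 CPM with pLVX, and alpha-fetoprotein (AFP), the fetal relative of albumin, had 4271 ± 64.3 CPM with CD146 overexpression and 6166 ± 157 CPM with pLVX. Their log2 fold changes of -0.59 and -0.53 were close in size to that of ALB. Plasminogen (PLG) fell by 1.41 and complement C3 by 0.27 on the log2 scale.

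The second comparison set the CD146 shRNA against the control shRNA in libraries labelled Hep3B, where these genes were mostly at or under the floor of 3 counts, worth 0.165 to 0.218 CPM there. A gene was taken as above the floor where all 3 libraries of a group had more than 3 counts. By this rule 8 of the 40 genes were above the floor with the CD146 shRNA (RBP4, APOE, APOM, ITIH2, AGT, LCAT, CETP and SAA1) and 8 with the control shRNA (RBP4, APOB, APOM, HPX, AGT, LCAT, CETP and SAA1), against 36 in each HepG2 group. With the control shRNA, 16 genes had 0 counts in all 3 libraries, and 25 had at most 3 counts in all. The floor covers counting error only.

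**Figure D4:**
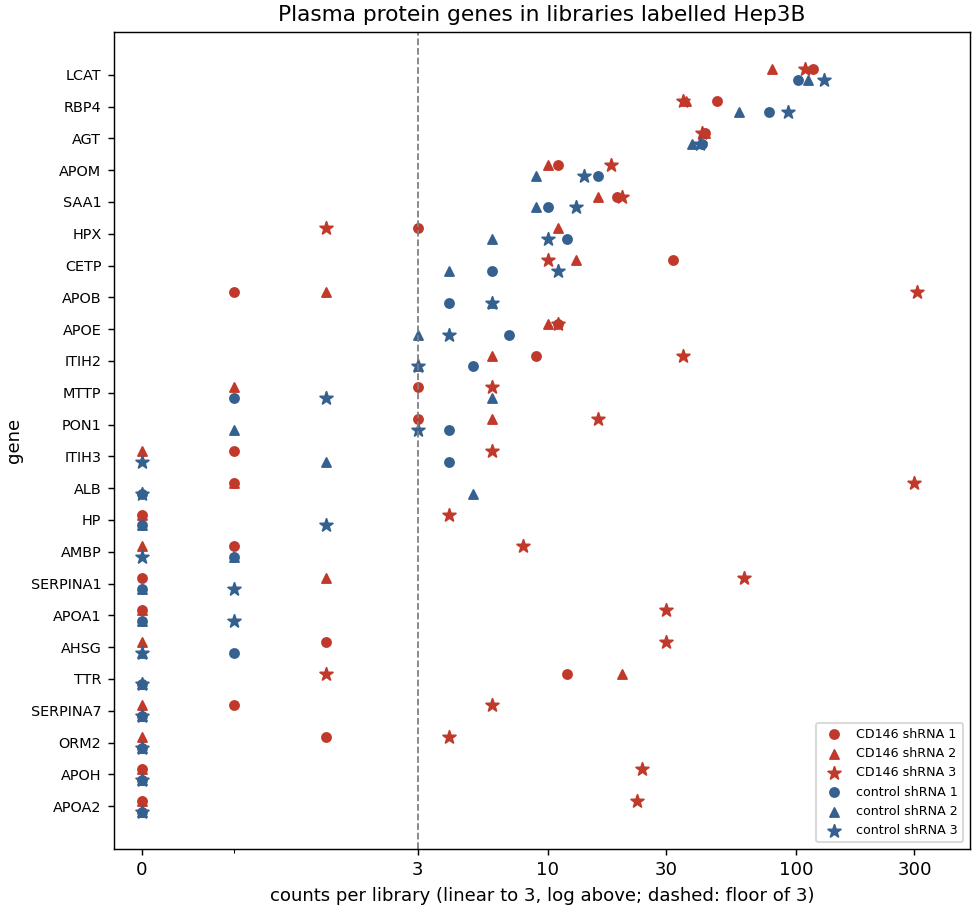
Counts per library (x axis, linear up to 3 and log above) of the 24 genes with more than 3 counts in at least 1 library labelled Hep3B, circles, triangles and stars being replicates 1, 2 and 3, red for the CD146 shRNA and blue for the control shRNA; the dashed line is the floor of 3 counts. RBP4 lies lower with the CD146 shRNA, and SERPINA1, APOA1, AHSG, APOH and APOA2 lie above the floor in CD146 shRNA replicate 3 alone.

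Of the 7 genes that passed the filter, 1 fell, 1 rose and 5 were not called, while 28.5% of all 16968 genes tested fell and 26.8% rose. RBP4 had 48, 36 and 35 counts with the CD146 shRNA, against 78, 59 and 93 counts with the control shRNA, which came to 2.44 ± 0.271 CPM with the CD146 shRNA and 4.80 ± 0.656 CPM with the control shRNA (SD, n = 3 each). The groups did not overlap, and the log2 fold change was -0.98 (SE 0.18, edgeR adjusted p = 1.9e-05). In all alternatives run, RBP4 stayed lower and called.

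CETP had 32, 13 and 10 counts with the CD146 shRNA, against 6, 4 and 11 counts with the control shRNA. In CPM the groups did not overlap (log2 fold change 1.33, SE 0.41, edgeR adjusted p = 0.0058), but by counts 1 control library lay within the range of the CD146 shRNA. Without CD146 shRNA replicate 1 the log2 fold change was 0.76 (edgeR adjusted p = 0.18), and DESeq2 gave an adjusted p of 0.075. SAA1, at 0 in HepG2, had 19, 16 and 20 counts with the CD146 shRNA, against 10, 9 and 13 counts with the control shRNA (log2 fold change 0.75, SE 0.34, edgeR adjusted p = 0.06). Its groups did not overlap in CPM, and limma on the FPKM called it higher (adjusted p = 0.042 with a pseudocount of 1 and 0.04 with 0.1).

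AGT had 43, 43 and 42 counts with the CD146 shRNA, against 42, 38 and 41 counts with the control shRNA, and the groups could hardly be closer (log2 fold change 0.05, interval from -0.36 to 0.46). LCAT had 117, 80 and 109 counts with the CD146 shRNA, against 102, 112 and 130 counts with the control shRNA (log2 fold change -0.20, edgeR adjusted p = 0.27), next to 959 to 1242 counts of the overlapping SLC12A4. The remaining genes tested were APOM (log2 fold change -0.02, interval from -0.74 to 0.69) and HPX (-0.83, interval from -1.78 to 0.13). HPX had 3, 11 and 2 counts with the CD146 shRNA, against 12, 6 and 10 counts with the control shRNA, and its log2 fold change was -1.85 without CD146 shRNA replicate 2 (edgeR adjusted p = 0.013), -0.47 without replicate 1 (0.48) and -0.54 without replicate 3 (0.41).

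TTR was chosen after its values were seen. It had 12, 20 and 2 counts with the CD146 shRNA, against 0, 0 and 0 counts with the control shRNA, and did not pass the filter. Pooled over the libraries, this was at least 10.8-fold higher with the CD146 shRNA, the control being set to the floor of 3 counts over the group. APOE had 11, 10 and 11 counts with the CD146 shRNA, against 7, 3 and 4 counts with the control shRNA, and was not tested either.

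Most of the other counts lay in CD146 shRNA replicate 3. It had 298 counts of ALB and 306 of APOB, where the other CD146 shRNA libraries had 1 or 2 of each and the control libraries 0 to 6. For 6 genes (APOA2, APOA5, APOC3, APOH, ORM1 and SERPINA6) it held all the counts found in the 6 libraries labelled Hep3B. A set of 15 genes was read that averaged at least 1000 counts in HepG2 and were not above the floor in either group labelled Hep3B. That choice drops genes above the floor in a group, so low values in the other libraries follow in part from it. On these genes replicate 3 had 507 counts, and 12 of the 15 had more than 3 counts in it. Each gene stood there between 0.0662 and 0.212% of its HepG2 level, with a median of 0.114%. The other 5 libraries had 5 to 14 counts on these 15 genes, at most 0.0032% of the HepG2 level when pooled. Fitted without a filter, 11 of the 40 genes were called higher with the CD146 shRNA, and 2 were without replicate 3.

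**Figure D5:**
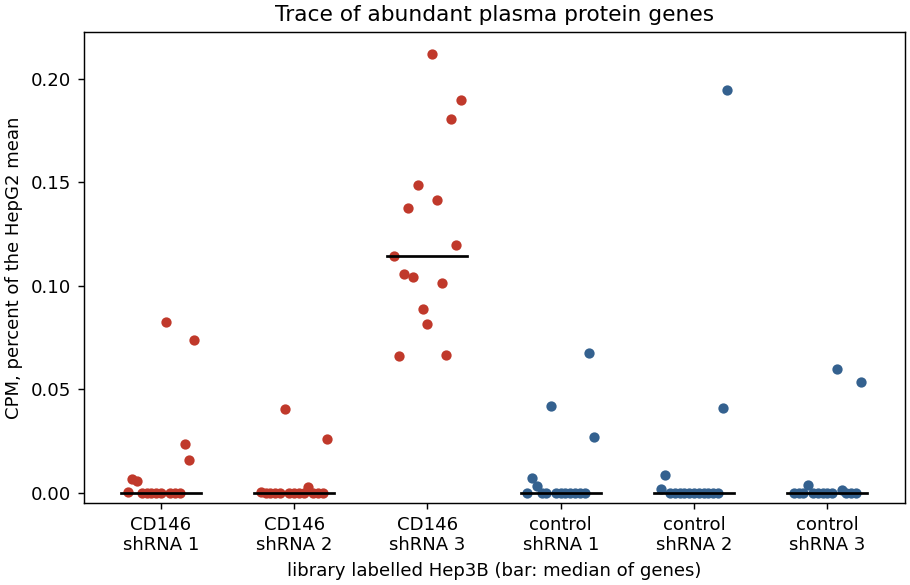
Level of 15 genes abundant in HepG2, as a percent of their mean CPM in HepG2 (y axis), in each library labelled Hep3B (x axis). Each point is a gene and the bar is the median. The genes were chosen as having at most 3 counts in at least 1 library of each group labelled Hep3B. In CD146 shRNA replicate 3, 12 of the 15 had more. In CD146 shRNA replicate 3 all 15 points lie between 0.0662 and 0.212%, whereas the median is 0 in each of the other libraries.

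Set against HepG2 with pLVX, the control shRNA libraries labelled Hep3B were lower for all 35 genes that could be tested, where 42.1% of all 17401 genes tested were lower (edgeR, adjusted p under 0.05). The 25 genes with at most 3 counts in all with the control shRNA could pass the filter on low counts only through pLVX. SAA1, with 32 counts with the control shRNA, did not pass. Tested genes with fewer counts there, such as ALB, ITIH2, APOE, APOB, CETP and HPX, thus also depended on pLVX to pass. That all 35 were lower thus follows largely from which genes were tested, and the share over all genes is no test of it. With no filter 39 were tested, of which 35 were called lower and SAA1 higher with the control shRNA. Genes with fewer than 3 counts over the 3 control shRNA libraries together were set to 3 counts, so their folds are lower bounds. The median of the 35 was then 1146-fold lower with the control shRNA than with pLVX. ALB had 5 counts in all with the control shRNA, all of them in replicate 2, and 930185 with pLVX. APOH, with 0 counts with the control shRNA and 85120 with pLVX, was at least 30693-fold lower on this group floor. At the other end, LCAT was 4.26-fold lower and CETP 1.85-fold lower. Of the 5 genes not tested, SAA1 had 32 counts with the control shRNA and 0 with pLVX. Line, medium and vector cannot be told apart in this comparison.

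For the 5 genes above the floor in all 4 groups, the effect of higher CD146 in HepG2 was set against that in libraries labelled Hep3B in a fit of all 12 libraries. It differed for RBP4 (difference in log2 fold change -0.98, SE 0.16, edgeR adjusted p = 1.8e-06), which did not move in HepG2 and was lower with less CD146 in libraries labelled Hep3B. The difference was -0.55 for APOM (edgeR adjusted p = 0.2), -0.22 for AGT (0.37), -0.11 for LCAT (0.63) and 0.79 for CETP (0.33), and none of these passed the threshold. Without CD146 shRNA replicate 3, that of APOM was -0.96 (edgeR adjusted p = 0.038). Over all 18870 genes, 36.4% differed in this contrast, in which line and method of changing CD146 cannot be told apart.

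Over all genes tested in libraries labelled Hep3B, 26.8% rose and 28.5% fell, shares that belong beside each list here. Of the pathway genes, 14 of the 21 for lipoprotein receptors, lipases and remodelling were tested there. Of these, 9 rose and 3 fell with the CD146 shRNA. The sorting receptor SORT1 had 268 ± 0.462 CPM with the CD146 shRNA and 148 ± 5.98 CPM with the control shRNA (SD, n = 3 each; log2 fold change 0.86, edgeR adjusted p = 3.4e-20). All 16 acute phase signalling genes were tested, 5 rose and 6 fell, among the rises IL1RAP (log2 fold change 1.19), the interleukin 1 receptor accessory protein, and SOCS3 (0.86), which restrains STAT3. Of 20 hepatocyte transcription factors, 12 were tested, 3 rose and 4 fell, with PPARA (0.58) and ONECUT2 (0.34) among the rises. Of the 30 other plasma proteins, 8 were tested, 5 rose and 0 fell. Complement C3 had 158 ± 2.84 CPM with the CD146 shRNA and 67.6 ± 2.15 CPM with the control shRNA, and vitronectin (VTN) had 7.29 ± 0.166 CPM with the CD146 shRNA and 0.820 ± 0.286 CPM with the control shRNA. Of the annotated overlaps, those of these other genes were not examined.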

How the data were processed

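Raw counts per Ensembl gene ID and FPKM were deposited by the authors, the FPKM (scaled by gene length and library size) rounded to 2 decimals. Tools listed in the submitters' processing notes are HTSeq 0.6.1, HISAT2 2.2.1 and cutadapt 1.9.1, in no stated order. Build, annotation and strand setting are not given in the sources used here. Per the labels, RNA was poly(A)-selected. Gene names matched 61757 of 61806 IDs.

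Each comparison was fitted alone in R 4.3.3 with edgeR 4.0.16 (TMM, filterByExpr, quasi-likelihood test, Benjamini-Hochberg adjustment over all genes tested, 2-sided, threshold 0.05). The fit was tested on simulated data. The difference between lines used all 12 libraries. SE is the absolute log2 fold change over the square root of F, and intervals are the normal 95% range from it. Levels are mean ± SD of 3 libraries. Counts give precision for counting error only. A count of 3 was worth 0.165 to 0.235 CPM. The exact permutation test of MCAM gave p = 0.1 in each line, the smallest that 3 against 3 libraries allow. No pair of replicates agreed within sampling noise (chi-square per gene 1.74 to 3.93).

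Alternatives were RLE scaling, scaling without the 40 genes, DESeq2 1.42.0, no filter, a 1 CPM filter, limma 3.58.1 on log2(FPKM + 1) or log2(FPKM + 0.1) for genes over 0.5 FPKM in 3 libraries, a replicate block, a fit of all 12 libraries, and each library left out. The fit without a filter and without CD146 shRNA replicate 3 was added after seeing the data. The genes, lists and tests were chosen with earlier results of these data known. Named were all 40 genes, up to 4 (HepG2) or 2 (labelled Hep3B) called genes per other list with the smallest adjusted p, and MCAM. One gene that this rule names is not reported here. Endothelial, fibroblast, leukocyte, intestinal and trophoblast markers were also read and are given among the other observations.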

Additional observations from a re-analysis of the deposited data

Results flagged for a closer look

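RBP4, the plasma carrier of retinol, was singled out because its response differed between HepG2 and libraries labelled Hep3B by the test of the difference itself. Line and method of changing CD146 cannot be told apart in it, and 36.4% of all genes differed. MCAM itself changed by 6.37 on the log2 scale with CD146 overexpression and by -2.25 with the CD146 shRNA, so the changes in CD146 were unlike in size. The effect of higher CD146 in HepG2 minus that in libraries labelled Hep3B was -0.98 on the log2 scale (SE 0.16, edgeR adjusted p = 1.8e-06 over all 18870 genes). With CD146 overexpression RBP4 stood at 436 ± 14.9 CPM and with pLVX at 436 ± 9.65 CPM, whereas with the CD146 shRNA it stood at 2.44 ± 0.271 CPM and with the control shRNA at 4.80 ± 0.656 CPM (SD, n = 3 each). RBP4 was lower in 3 of 3 CD146 shRNA libraries than in any control library. The level of RBP4 in libraries labelled Hep3B rested on 35 to 93 counts per library. Leaving out each library in turn gave differences from -1.05 to -0.84.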

How the results depend on the processing

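Of 1098 values of single genes recomputed under an alternative, 1026 kept their direction and their side of the threshold, 30 lost a call, 8 gained one and 34 changed sign, all of these near 0 and uncalled. In HepG2, DESeq2 called 684 genes higher and 930 lower, against 1461 and 1576 with edgeR, and limma called 1214 higher and 400 lower with a pseudocount of 1, and 1199 and 391 with 0.1. The 40 genes gave 3 higher on log2(FPKM + 0.1). Leaving out each library in turn gave 1 to 2 higher and 18 to 20 lower. In libraries labelled Hep3B, the 40 genes gave 2 higher with DESeq2, 11 with no filter, 0 with the 1 CPM filter, 13 in the fit of all 12 libraries and 2 with no filter and without CD146 shRNA replicate 3. Leaving out each library gave 0 to 3 higher and 1 to 2 lower. In the comparison of the lines, 1 gene (SAA1) was higher with the control shRNA with DESeq2, no filter, limma under both pseudocounts and in the fit of all 12 libraries, and 0 to 1 when each library was left out. The median of all genes in that comparison was 0.02 on the log2 scale, 0.17 with DESeq2, 0.14 with no filter, and 0.27 and 0.36 with limma. The difference between lines was called for 1 to 2 genes when each library was left out. With a floor of 10 counts, 4 genes were above it with the CD146 shRNA and 3 with the control shRNA. When the group mean had to exceed 3 counts, 19 were above it with the CD146 shRNA, which rested largely on replicate 3. In that library 22 of the 40 genes had more than 3 counts, against 9 and 11 in CD146 shRNA replicates 1 and 2. The control shRNA libraries had 9 to 12 such genes. The cause of these changes was not tested, except that filters change which genes are tested.

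Signs changed in HepG2 for RBP4 (0.0015 with the 1 CPM filter, 0.070 with limma under either pseudocount, 0.0011 in the fit of all 12 libraries), SERPINA1 (-0.0024 with DESeq2, -0.0020 with no filter), and with limma, at pseudocounts of 1 and 0.1, for APOC2 (0.022 and 0.027), SERPINA7 (0.0280 and 0.0283), MTTP (0.048 and 0.049) and SAA4 (0.038 and 0.039). In libraries labelled Hep3B they changed for APOM (0.0063 with DESeq2) and for AGT (-0.051 with no filter and without CD146 shRNA replicate 3). Leaving out each library gave, on the log2 scale, -0.031 to 0.017 for RBP4, -0.0023 to 0.018 for APOA1, -0.0030 to 0.022 for APOB, -0.14 to 0.087 for APOC2, -0.012 to 0.025 for SERPINA1, -0.058 to 0.018 for MTTP and -0.063 to 0.0070 for SAA4 in HepG2, -0.44 to 0.17 for APOM and -0.047 to 0.13 for AGT in libraries labelled Hep3B, and -0.27 to 0.066 for the difference of LCAT.

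Same-numbered libraries did not deviate together in every pair (correlation -0.08, -0.06 and 0.02 in HepG2 and 0.16, 0.09 and 0.03 in libraries labelled Hep3B). With the replicate block, HepG2 gave 1440 genes higher and 1507 lower, with 1 and 19 of the 40, and APOM in libraries labelled Hep3B had a log2 fold change of 0.0050. Few reads on the 40 genes limit the libraries labelled Hep3B, at totals of 13.8M to 18.1M counts against 12.8M to 16.9M in HepG2. Between 9 and 12 of the 40 genes had more than 3 counts in those libraries, except CD146 shRNA replicate 3, where 22 had.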

Other observations

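Markers of cells other than hepatocytes gave the following sums. Over all genes tested, 26.8% rose and 28.5% fell in libraries labelled Hep3B, and 9.55% rose and 10.3% fell in HepG2. Of 5 placental trophoblast markers, 4 were tested in libraries labelled Hep3B, where 2 rose and 2 fell, and the 5 summed to 1659 to 1766 CPM with the CD146 shRNA and to 539 to 576 CPM with the control shRNA, while every HepG2 library had at most 0.777 CPM. Of 6 endothelial markers, 3 were tested there and 2 rose, with sums of 23.9 to 24.5 CPM with the CD146 shRNA and 3.05 to 3.90 CPM with the control shRNA. All 3 tested of 6 fibroblast and stellate markers rose there, with sums of 93.4 to 116 CPM with the CD146 shRNA and 58.4 to 67.1 CPM with the control shRNA. In HepG2, 1 of 3 tested leukocyte markers fell, with sums of 991 to 1059 CPM with CD146 overexpression and 1273 to 1339 CPM with pLVX, and 1 of 3 tested intestinal markers rose, with sums of 603 to 624 CPM with CD146 overexpression and 537 to 561 CPM with pLVX. Their part in the values of the plasma protein genes was not tested.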
